A study of Mus musculus with 22 samples.

Results

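The transcripts described here are the rows of the deposited expression tables that the study's annotation places on the mitochondrial chromosome. The 8 members are Atpase6, mt-Nd4, AK140265, AK141672, AK163440, BC071253, DQ539915 and GU332589, of 29848 genes in the tables. Atpase6 also has a copy on chromosome 1. Besides their position, the members were chosen by measured values: Atpase6 and mt-Nd4 had stood out for their difference between dendrite and soma in immunoprecipitates, and AK163440 for its difference between behaviours in dendrites. Those contrasts are therefore given as values only, without a test.

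RNA of mouse hippocampal area CA1 was measured by translating ribosome affinity purification. All animals were Camk2a-tTA/tetO-EGFP-L10a double transgenics on C57BL/6. In these mice a transactivator under the promoter of Camk2a, a kinase gene of excitatory forebrain neurons, switches on the ribosomal protein L10a fused to GFP, and an antibody to GFP pulls the tagged ribosomes down. Libraries came from 8 immunoprecipitates (IP), 2 each of dendrites after fear conditioning (FC), a training that pairs a shock with a cue or place, dendrites from home cage animals (HC), soma after fear conditioning and soma from home cage animals. A further 3 came from supernatants (SN), the RNA left unbound: FC dendrite 2, HC dendrite 2 and FC soma 2. Every one of the 11 libraries was sequenced paired-end and single-end, and both runs count as 1 replicate. The labels give no age. Nothing in them says whether replicate libraries came from different mice, so the p-values may reflect technical spread alone.

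The mitochondrial genome encodes a small set of proteins, all subunits of the respiratory chain and of the ATP synthase, and its own ribosomal and transfer RNAs. Both of its strands are transcribed into long precursors that are cut into single messages, and those messages are translated inside the organelle by mitochondrial ribosomes, which are built without L10a. In neurons, mitochondria are found in soma, axons and dendrites, where their ATP supports ion pumping and synaptic transmission. Atpase6 encodes subunit a of the ATP synthase, the part of the membrane sector through which protons pass. The product of mt-Nd4 is a membrane subunit of complex I, the NADH dehydrogenase that starts the respiratory chain.

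Sequences are shown first because they set what 2 of the rows can measure. The Atpase6 row joins a stretch of 201 bases on the mitochondrial plus strand (mm9 chrM:7763-7963) and 842 bases on the minus strand of chromosome 1 (mm9 chr1:24620810-24621651). In the GENCODE M21 annotation of GRCm38, mt-Atp6 has 681 bases, and the unprocessed pseudogene Gm10925 on chromosome 1 has 678. The pseudogene matched mt-Atp6 at 678 of 678 bases. The starts of both are printed with the first codon in capitals, to show that a read from either place has the same letters.
mt-Atp6, chromosome M: ATGaacgaaaatctatttgcctcattcatt
Gm10925, chromosome 1: ATGaacgaaaatctatttgcctcattcatt
Reads of mt-Atp6 and of its nuclear copy therefore cannot be told apart. The span of the row on the mitochondrial chromosome, with the rest of its 3′ UTR, is 845 bases, longer than mt-Atp6. If both end together, most of the 201 bases lie upstream of mt-Atp6, where mt-Atp8 (204 bases) is, another ATP synthase subunit gene that shares 43 bases with mt-Atp6. The identity of that stretch with chromosome 1 was not tested. Values are given under Atpase6, the symbol of the files.

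The mt-Nd4 row (mm9 chrM:9876-10371) holds 496 bases, of which 294 are annotated as coding, or 98 codons. In GENCODE M21, mt-Nd4 has 1378 bases and its upstream neighbour mt-Nd4l, another complex I subunit, has 297. The coding part of the row thus has the length of mt-Nd4l without its last codon, and not the length of mt-Nd4. Both reading frames lie on 1 message and share 7 bases, printed in capitals at the end of mt-Nd4l and at the start of mt-Nd4.
mt-Nd4l, last 30 bases: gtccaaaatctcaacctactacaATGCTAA
mt-Nd4, first 30 bases: ATGCTAAaaattattcttccctcactaatg
Both genes also have nuclear copies. Gm10222 on chromosome 1 matched mt-Nd4l at 294 of 294 bases, and Gm28439 on the same chromosome matched the start of mt-Nd4 at 876 of 876 bases. Values are given under mt-Nd4, the symbol of the files.

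The other 6 rows carry only sequence identifiers, and no function is annotated for them in the files or references used here. AK140265, AK163440 and DQ539915 are stretches of 201 bases on the plus strand (mm9 chrM:67-267, chrM:3846-4046 and chrM:5324-5524). GU332589 (mm9 chrM:1094-2681, 1588 bases), AK141672 (chrM:9203-9888, 686 bases) and BC071253 (chrM:11720-14070, 2351 bases) lie on the minus strand. AK141672 overlaps mt-Nd4 on the other strand, in 1 base of its 5′ UTR and 12 of its coding bases. GU332589 overlaps AK018753 and BC071253 overlaps Cytb, mitochondrial rows that are not members, each in 201 bases on the other strand. The rest of the 3′ UTR of AK018753 (chrM:1347-3703) and of Cytb (chrM:12604-15288) also reaches into these members. Whether the counting used strand is not given, so reads of overlapping genes cannot be separated.

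The spacing of low values gave 5.69 to 35.3 M mapped fragments for paired-end runs and 0.515 to 10.6 M mapped reads for single-end runs. Rpsa, a ribosomal protein gene, took 74.0% of the summed FPKM of the HC soma IP 2, and Mir135b, a microRNA gene, took 26.9% in the FC dendrite IP 1. Pearson's r of log2 FPKM over genes was 0.0876 to 0.352 between immunoprecipitates. The FC dendrite IP 1 had an r of 0.659 with the HC dendrite supernatant in the paired-end run and 0.33 in the single-end run. Hprt and Tbp, which all cells use, were each listed at 0 in 4 paired-end libraries, so zeros are described below as listed at 0. Levels below are FPKM, fragments per kilobase and per M mapped fragments, either as deposited or scaled, meaning divided by each library's median ratio to the others.

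Atpase6 was the most abundant member in every library and among the most abundant rows of the dendrite libraries. Its scaled FPKM was 1474 and 1805 in the FC dendrite IPs and 1717 and 1815 in the HC dendrite IPs, against 357 and 169 in the FC soma IPs and 12.8 and 55.2 in the HC soma IPs. The supernatants had 1006 (FC dendrite), 874 (HC dendrite) and 194 (FC soma). All 4 dendrite IPs lay above all 4 soma IPs in both tables, scaled or as deposited. The dendrite IPs ran from 1641 to 3345 FPKM as deposited, and from 2393 to 6480 in the scaled single-end table. The mean was 1703 ± 159 scaled FPKM in dendrite IPs and 149 ± 154 in soma IPs (SD, n = 4 each), a ratio of 11.5. Among rows of the paired-end table, Atpase6 ranked between 1 and 3 in the dendrite IPs, 5 in both FC soma IPs, and 352 and 123 in the HC soma IPs 1 and 2. Its single-end ranks lay between 2 and 5 in the dendrite IPs and were 6 and 11 in the FC soma IPs and 199 and 41 in the HC soma IPs. On the log2(scaled FPKM + 1) scale, on which low values change less, the dendrite minus soma difference was 4.36, which ranked 2 among 2922 genes.

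The mt-Nd4 row followed the same order at a far lower level. It had 41.6 and 35.3 scaled FPKM in the FC dendrite IPs and 14.6 and 30.8 in the HC dendrite IPs, against 13.7 and 1.09 in the FC soma IPs, and it was listed at 0 in both HC soma IPs. The supernatants had 45.7 (FC dendrite), 45.7 (HC dendrite) and 4.70 (FC soma). As deposited, 3 fragments on this row would have been 0.446 and 0.427 FPKM in the HC soma IPs 1 and 2. In the single-end run the row was above 0 in the HC soma IP 2, at 2.87 FPKM. The dendrite minus soma difference was 3.65 on the log2 scale and ranked 5 among 2922 genes. The lowest dendrite IP, 14.6 scaled FPKM, was only just above the highest soma IP, 13.7, and in deposited FPKM and in the single-end table the groups overlapped.

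**Figure D1:**
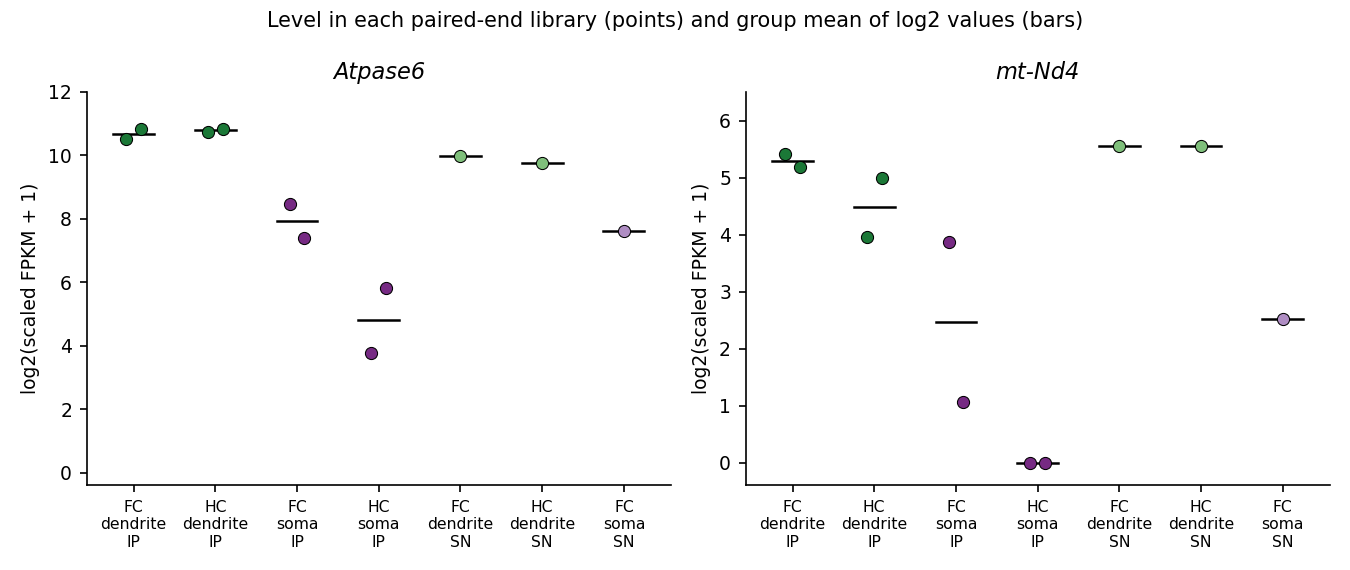
Level of Atpase6 (left) and mt-Nd4 (right) as log2(scaled FPKM + 1) in each paired-end library; points are libraries, bars are the mean of the log2 values of a group, FC is fear conditioned, HC home cage, IP immunoprecipitate and SN supernatant. All dendrite libraries lie above all soma libraries for Atpase6, and mt-Nd4 is listed at 0 in both HC soma IPs.

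The dendrite minus soma difference of the 7 members at or above the minimum for the fits, a mean of 1 in scaled FPKM, was positive, as in 42.8% of all 2922 genes. AK140265, with a mean of 0.908, was under that minimum. The members were chosen with this contrast in view, and DQ539915 passed the minimum through 1 dendrite library alone, which fixed its sign, so nothing is read from their count. Without the FC soma IP 2, BC071253 came to -0.029 and GU332589 to -0.032. In deposited single-end FPKM the mean of AK163440 in dendrite IPs was 0.821 times that in soma IPs. The groups did not overlap for 2 members, Atpase6 and mt-Nd4; dendrite IPs lay above soma IPs without overlap in 1.88% of all genes. The remaining differences were 1.91 for AK163440, 1.37 for AK141672, 1.05 for DQ539915, 0.45 for BC071253 and 0.41 for GU332589.

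The supernatants, which did not enter that choice, gave the same order of dendrite and soma for Atpase6 and mt-Nd4. The mean of the dendrite supernatants was 4.84 times the soma supernatant for Atpase6 and 9.73 times for mt-Nd4 in scaled FPKM. AK163440 had 109 (FC) and 117 (HC) in the dendrite supernatants and 12.6 in the soma supernatant. GU332589 had 7.76 (FC) and 20.1 (HC) in the dendrite supernatants and 1.53 in the soma supernatant. With 1 soma supernatant these are values, and no test was run. The share of all genes with this order was not computed, so nothing is read from it. The supernatant libraries hold tissue RNA of all cells of a dissection. In such bulk samples fewer cells of a type and less RNA per cell cannot be told apart.

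Together the 8 rows took a large part of the dendrite libraries. Their share of the summed FPKM was 7.41% and 7.02% in the FC dendrite IPs and 4.58% and 7.17% in the HC dendrite IPs, against 1.93% and 0.984% in the FC soma IPs and 0.0466% and 0.0403% in the HC soma IPs. The single-end shares were 9.39% and 2.96% in the FC dendrite IPs and 2.44% and 2.09% in the HC dendrite IPs, against 2.80% and 0.828% in the FC soma IPs and 0.0112% and 0.110% in the HC soma IPs, so that dendrite and soma IPs overlapped. In the single-end run 1 row, Gm3168, took 45.6% of the summed FPKM of the FC dendrite IP 2. It took 65.9% and 41.9% in the HC dendrite IPs 1 and 2. In the FC and HC soma IPs 2 it took 27.9% and 34.9%. Single-end shares without this row were not computed. Without Rpsa the paired-end share of the HC soma IP 2 was 0.155%. The paired-end supernatants had 6.46% (FC dendrite), 5.81% (HC dendrite) and 1.45% (FC soma). Atpase6 alone made up 82.1 to 100% of the members' sum in the paired-end libraries. Its row holds 201 bases on the mitochondrial chromosome and 842 on chromosome 1. How much of the share came from either place was not tested. Without Atpase6, the share was at most 1.04%, in the HC dendrite supernatant.

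**Figure D2:**
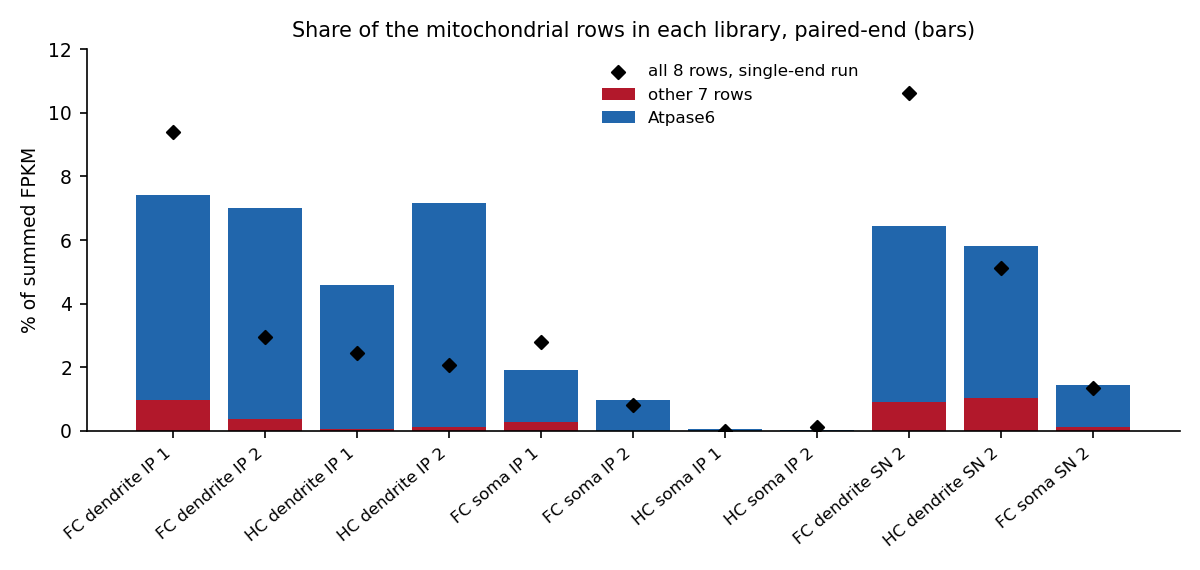
Share of the 8 mitochondrial rows in the summed FPKM of each library, in percent; bars are the paired-end run, split into Atpase6 and the other 7 rows, and diamonds are the single-end run. The Atpase6 row holds 201 bases on the mitochondrial chromosome and 842 on chromosome 1. Dendrite IPs reach 4.58% to 7.41% in the paired-end run, against 0.0466% and 0.0403% in the HC soma IPs; in the single-end run the dendrite IPs lie between 2.09% and 9.39% and the HC soma IPs at 0.0112% and 0.110%.

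The single-end runs, technical repeats of the same libraries, kept the place of Atpase6 and changed that of the low rows. Over the 11 libraries Pearson's r between the runs, on the log2 scale, was 0.967 for Atpase6 and 0.699 for mt-Nd4, and it was 0.359 for AK141672 and -0.149 for DQ539915. The points share each library but not its depth. In deposited single-end FPKM, Atpase6 had 4923 and 5460 in the FC dendrite IPs and 4282 and 3189 in the HC dendrite IPs, against 955 and 741 in the FC soma IPs and 26.2 and 54.6 in the HC soma IPs. DQ539915 was above 0 only in the FC dendrite IP 2 of the paired-end table (31.8 FPKM), and only in the FC and HC dendrite supernatants of the single-end table (26.3 and 20.8 FPKM). AK140265 was above 0 in the FC dendrite IP 1 (14.6) and the HC dendrite supernatant (4.54) in the paired-end table. In the single-end table it was above 0 in the FC and HC dendrite supernatants (26.3 and 2.98).

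**Figure D3:**
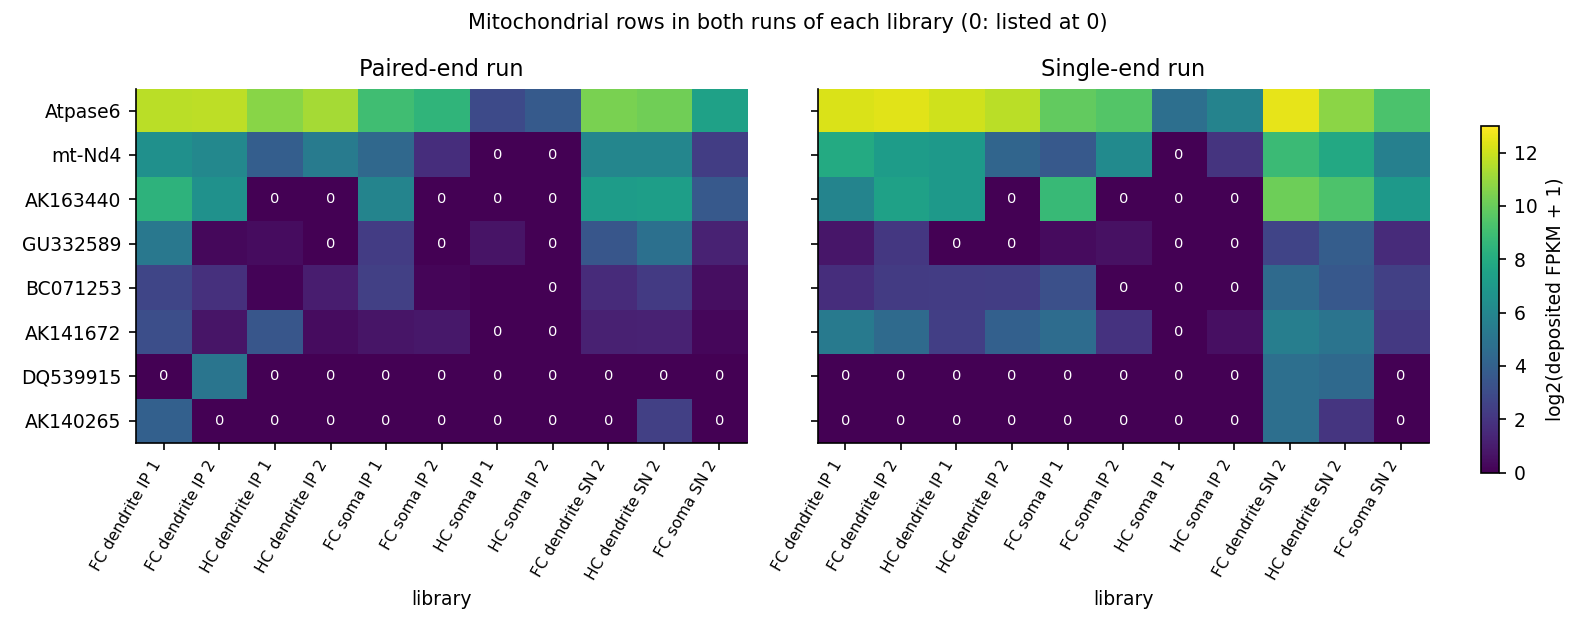
Deposited FPKM of the 8 rows as log2(FPKM + 1) in the paired-end (left) and single-end (right) run of each of the 11 libraries; a 0 marks a value listed at 0. Atpase6 is above 0 in every run, and most other rows are listed at 0 in the HC soma IPs.

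The immunoprecipitates were next set against the supernatants, which asks whether RNA pulled down with tagged ribosomes differs from the RNA left behind. In dendrites no mitochondrial row passed the test. limma called 2 of 2938 genes (0.0681%), AK193394 and Gm3168, both lower in the paired-end IPs. At an unadjusted p under 0.05 there were 128 genes (4.36%). The single-end runs did not keep this order for Gm3168. There it took 65.9% and 41.9% of the summed FPKM of the HC dendrite IPs 1 and 2, and 45.6% of the FC dendrite IP 2. No row outside the members took more than 9.67% (HC) or 17.2% (FC) of the single-end dendrite supernatants. The 2 genes called are named after their values were seen. None of the 7 members tested was among them, and each had an adjusted p of 1 in limma. The median difference of the 7, among them DQ539915 with a sign fixed in advance, was -0.62, against -0.10 over all genes tested.

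Atpase6 was 0.85 ± 1.02 higher on the log2 scale (SE) in dendrite IPs than in dendrite supernatants. The 4 IPs, from 1474 to 1815 scaled FPKM, lay above both supernatants, which had 1006 and 874. A lack of overlap in that direction was seen in 4.39% of all genes. In the single-end table the groups overlapped: the FC dendrite supernatant (5803 FPKM) was above all 4 IPs as deposited and, at 3329 scaled FPKM, below 2 of the 4. The mt-Nd4 row differed by -0.66 ± 1.28, and all 4 IPs, from 14.6 to 41.6, lay below both supernatants, at 45.7; such a lack of overlap was seen in 18% of all genes.

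AK163440 and GU332589 had the lowest differences, with -3.59 ± 1.66 and -2.59 ± 1.18 in limma, and missed the threshold after adjustment. AK163440 had 153 and 51.5 scaled FPKM in the FC dendrite IPs and was listed at 0 in both HC dendrite IPs, against 109 (FC) and 117 (HC) in the dendrite supernatants. GU332589 had 16.1 and 0.116 in the FC dendrite IPs, 0.366 in the HC dendrite IP 1 and was listed at 0 in the HC dendrite IP 2, against 7.76 (FC) and 20.1 (HC) in the dendrite supernatants. For both rows it was the FC dendrite IP 1 that reached the level of the supernatants. Without it the differences were -4.42 and -3.53, with limma's adjusted p at 1 and 0.923. Without the HC dendrite supernatant the difference of AK163440 was -1.26 and that of GU332589 -1.38. AK141672 differed by 0.62, BC071253 by -0.62 and DQ539915 by 1.05. DQ539915 passed the minimum through the FC dendrite IP 2 alone, which fixed the sign of its difference, so nothing is read from it.

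In soma, where a single supernatant is assumed to vary like the other groups, limma called 0 of 2938 genes (0%), with 28 (0.953%) at an unadjusted p under 0.05. Atpase6 differed by -0.61 ± 1.37 and mt-Nd4 by -0.62 ± 1.72 on the log2 scale (SE). The supernatant value of each, 194 and 4.70 scaled FPKM, lay inside the range of the soma IPs. The other 5 members tested had differences between -0.61 and 0.42. The 0.42 is DQ539915, listed at 0 in all paired-end soma libraries, so it comes from the adjustment for behaviour alone. None of the 7 was separated from the supernatant without overlap, as were 5.51% of all genes upwards and 17.4% downwards.

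**Figure D4:**
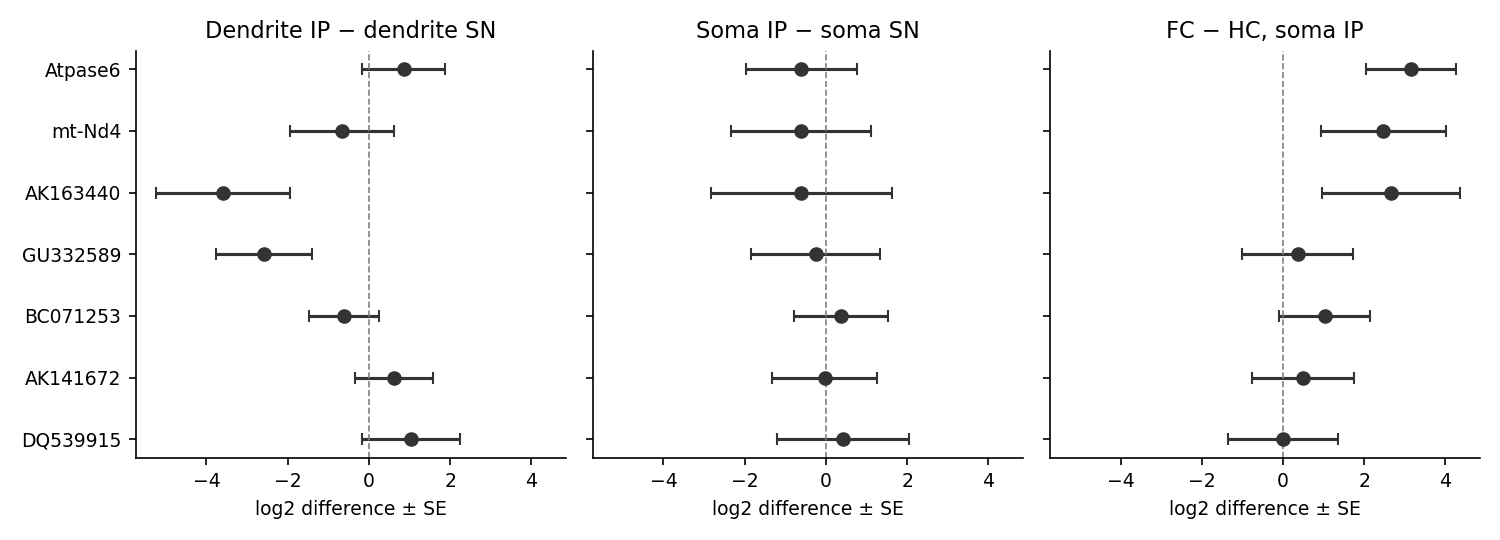
Log2 difference with its standard error from limma for the 7 members tested: dendrite IP minus dendrite SN (left), soma IP minus soma SN (middle) and FC minus HC soma IP (right). No difference passed the threshold; those of AK163440 and GU332589 in dendrites and of Atpase6 between behaviours lie farthest from 0 in units of their error.

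Fear conditioned and home cage animals were compared within each location. In soma IPs, Atpase6 had 357 and 169 scaled FPKM after fear conditioning, against 12.8 and 55.2 in the home cage. Both FC libraries were above both HC libraries, and the difference was 3.15 ± 1.12 on the log2 scale (SE), with an adjusted p of 0.611 in limma. No gene was called (0 of 2922, 0%), and 176 (6.02%) had an unadjusted p under 0.05, Atpase6 among them. In deposited FPKM, without scaling between libraries, Atpase6 had 521 and 357 in FC soma IPs, against 6.48 and 11.7 in HC soma IPs. That setting gave 5.47 with an adjusted p of 0.0419 in limma, where it was the only gene called. Without the HC soma IP 2, where Rpsa dominates and the size factor is the lowest at 0.211, the difference was 4.24 with an adjusted p of 0.0458 in limma, and 167 genes were called, 164 of them lower in FC and 3 higher. Without the HC soma IP 1 the difference was 2.21 with an adjusted p of 0.2 in limma, and 56 genes were called, all lower in FC. Either omission leaves 1 home cage soma IP, which is assumed to vary like the other groups.

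The mt-Nd4 row had 13.7 and 1.09 scaled FPKM in FC soma IPs and was listed at 0 in both HC soma IPs, a difference of 2.47 ± 1.54 with an adjusted p of 0.611 in limma. AK163440 had 39.1 in the FC soma IP 1 and was listed at 0 in the other 3 soma IPs. AK141672 had 0.442 and 0.377 in FC soma IPs and was listed at 0 in both HC soma IPs. In scaled paired-end FPKM, FC lay above HC without overlap in 3 of the 7 members tested, Atpase6, mt-Nd4 and AK141672, beside 29.3% of all genes. In scaled single-end FPKM, mt-Nd4 had 8.37 and 40.7 in FC soma IPs, against 0 and 11.5 in HC soma IPs. AK141672 had 17.2 and 1.52 there in FC, against 0 and 1.74 in HC. Both rows thus overlapped on that scale, but not in deposited single-end FPKM. The median difference of the 7 was 1.03, against 0.17 over all genes tested. DQ539915, 1 of the 7, was listed at 0 in all 4 soma IPs, so its difference was 0.

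In dendrite IPs Atpase6 had 1474 and 1805 scaled FPKM after fear conditioning and 1717 and 1815 in the home cage, a difference of -0.11 on the log2 scale. This value depended on the scaling: it was 0.73 without scaling and 1.2 with scaling to the 75th percentile. In deposited FPKM both FC dendrite IPs (3266 and 3345) were above both HC dendrite IPs (1641 and 2413), and the deposited single-end values did not overlap either. The scaled single-end values did overlap, with 3235 and 4816 in FC and 6480 and 2393 in HC. AK163440 had 153 and 51.5 in FC dendrite IPs and was listed at 0 in both HC dendrite IPs, and its difference of 6.49 ranked 1 among 2922 genes, the contrast from which it had been chosen. In the single-end table it had 56.9 and 173 FPKM in FC dendrite IPs, against 128 and 0 in HC dendrite IPs, so that the groups overlapped. Its level in the HC dendrite supernatant, 117 scaled FPKM, was also above 0. In scaled paired-end FPKM, FC lay above HC without overlap for mt-Nd4, AK163440 and BC071253, 3 of 7 members, beside 24.5% of all genes. In deposited single-end FPKM, BC071253 went the other way, with 2.28 and 3.85 in FC, against 4.00 and 4.13 in HC. There mt-Nd4 kept its order, but its scaled single-end values overlapped (163 and 126 in FC, 190 and 13.7 in HC). Whether the difference between behaviours differs between dendrite and soma was not tested.

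Across the 11 libraries mt-Nd4 and Atpase6 had a Pearson's r of 0.918 on the log2 scale; all correlations here are descriptions over libraries that share depth and composition. AK163440 had an r of 0.887 with BC071253 and 0.801 with GU332589, and 0.474 with Atpase6. The genes outside the mitochondrial rows most like Atpase6, of 556 with a mean of at least 5 and values above 0 in at least 8 libraries, were Ndrg2 (r = 0.881), Celf4 (0.873), Arf3 (0.869), Aldoc (0.856) and Dlg4 (0.85). Celf4 encodes an RNA-binding protein, Arf3 a small GTPase of membrane traffic and Dlg4 the postsynaptic scaffold PSD-95. Those most like mt-Nd4 were Sparcl1 (0.931), Aldoc (0.902), Glul (0.887), Ndrg2 (0.88) and Celf4 (0.859). In the single-end table r with Atpase6 was 0.772 for Ndrg2 and 0.198 for Aldoc, and r with mt-Nd4 was 0.806 for Glul, 0.224 for Sparcl1 and 0.0671 for Aldoc.

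Astrocyte genes are among these: Glul encodes glutamine synthetase and Aldoc aldolase C. The 10 astrocyte markers summed to 86.7 to 225 scaled FPKM in dendrite IPs and 2.40 to 55.9 in soma IPs, and to 215 and 267 in the dendrite supernatants and 19.8 in the soma supernatant. All 7 tested had a positive dendrite minus soma difference, with a median of 2.96. In soma the sums were 55.9 and 2.40 in the FC IPs and 23.0 and 6.64 in the HC IPs. Markers of pyramidal neurons summed to 67.3 to 534 in dendrite IPs and 28.3 to 138 in soma IPs, and the most abundant of them, Camk2a, had a mean of 274 in dendrite IPs and 29.4 in soma IPs. The 5 pyramidal markers tested had a median dendrite minus soma difference of -1.76, with 3 negative, among them Neurod6 (-2.80) and Nrgn (-1.80). Oligodendrocyte markers summed to 6.13 to 59.4 in dendrite IPs and 0.955 to 63.3 in soma IPs. Microglia markers summed to 0.784 to 16.6 in dendrite IPs and 0.0164 to 10.4 in soma IPs, with C1qb, C1qc and Cx3cr1 listed at 0 in every soma IP. Interneuron markers summed to 0.343 to 16.1 in dendrite IPs and at most 9.76 in soma IPs. Vascular markers summed to at most 4.01 in dendrite IPs and 0.237 in soma IPs, and blood markers to 2.44 to 172 in dendrite IPs and at most 4.67 in soma IPs. The part of other cell types in the mitochondrial values was not tested.

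**Figure D5:**
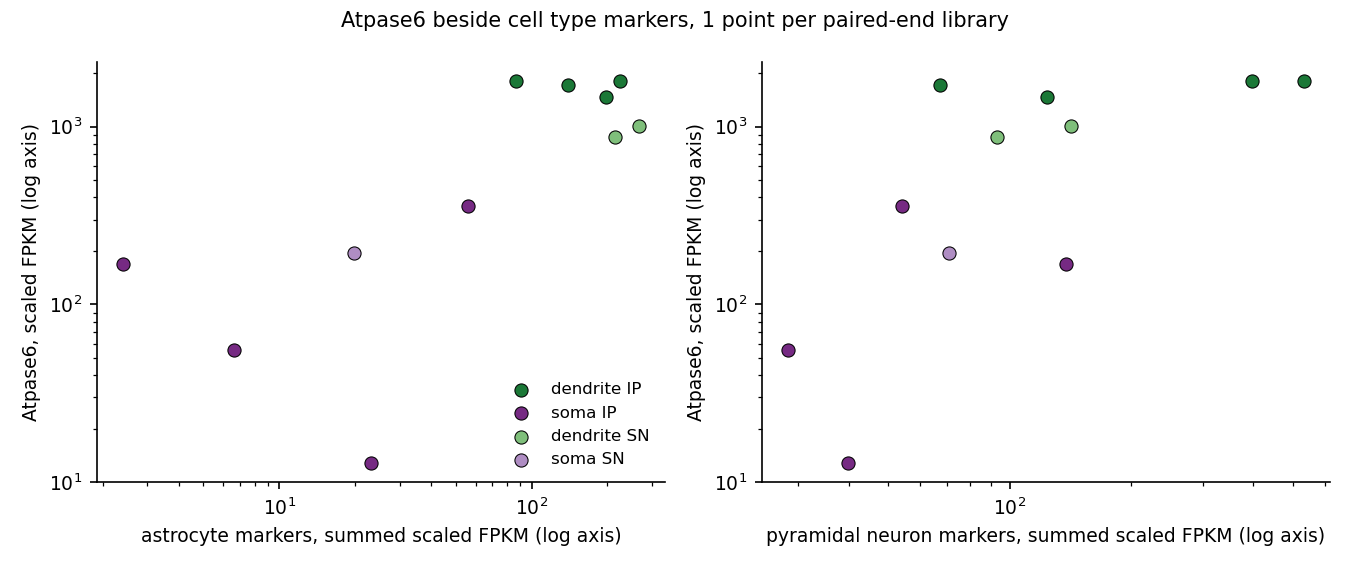
Scaled FPKM of Atpase6 against the summed scaled FPKM of 10 astrocyte markers (left) and 8 pyramidal neuron markers (right), both axes logarithmic; 1 point is 1 paired-end library. Dendrite libraries have both more Atpase6 and higher astrocyte sums than soma libraries, and the astrocyte sums of dendrite IPs (86.7 to 225) and soma IPs (2.40 to 55.9) do not overlap.

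Nuclear genes whose products work with the mitochondrial subunits were followed in 8 lists with 234 genes. Of the 97 tested between IPs and supernatants, limma called 0 in dendrites and 0 in soma; at an unadjusted p under 0.05 there were 0 in dendrites and 1 in soma. Between behaviours in soma, limma called 0 of 89, with 5 at an unadjusted p under 0.05. Nuclear-encoded ATP synthase genes, the partners of Atpase6, had a median dendrite minus soma difference of 0.13, with 8 of 14 positive. Mitochondrial ribosomal protein genes had a median of -0.88, with 14 of 19 negative, and nuclear-encoded genes of complexes II and III a median of -0.01, with 4 of 7 negative. The medians of the other 3 lists were 0.15 for DNA maintenance, transcription and RNA processing, 0.47 for transport and anchoring and 0.20 for import and outer membrane. Atp5b, the catalytic beta subunit, had a mean of 30.1 ± 27.1 scaled FPKM in dendrite IPs and 9.19 ± 15.6 in soma IPs (SD, n = 4 each), and Atp5a1, the alpha subunit, had 9.01 ± 4.09 in dendrite IPs and 12.9 ± 13.7 in soma IPs. For Atpif1, an inhibitor of the enzyme, and Atp5h, a stalk subunit, the differences were 2.28 and -0.56 on the log2 scale. Nuclear-encoded complex I genes, partners of mt-Nd4, had a median of 0.96, with 9 of 14 positive. Of these, Ndufa4, a subunit named for complex I that also associates with complex IV, differed by 2.60, Ndufc1 by 1.35, Ndufb4 by -2.37 and Ndufs3, a core subunit, by -1.70. Complex IV, or cytochrome c oxidase, had 8 of 9 nuclear-encoded genes positive and a median of 0.60. Cox8a, Cox7c, Cox6a1 and Cox5b, all subunits of it, differed by 0.89, 0.57, 1.01 and 0.36. Atpase6 and mt-Nd4 were chosen for their difference in this contrast. That they lie above these medians was set by that choice, and nothing is read from it. Among all 2922 genes limma called 0 in this contrast (0%), with 132 (4.52%) at an unadjusted p under 0.05.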

How the data were processed

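Members and gene lists were chosen with earlier results of these data known. RNA was amplified with the Nugen Ovation V2 kit, per the labels' protocols; tools and build, per the submitters' processing notes, were STAR 2.1.1d, Cufflinks 2.0.2, CASAVA 1.9 and mm9. The authors deposited FPKM for the 5′ UTR, coding sequence and start of the 3′ UTR, used here, and separately for the rest of the 3′ UTR, per the file headers; no scaling between libraries is given in the sources used here. Libraries were divided by their median ratio over 765 genes above 0 in all 11 paired-end libraries. limma 3.58.1 in R 4.3.3, with trended empirical Bayes moderation, was fitted to log2(scaled FPKM + 1) over genes with a mean of at least 1, two-sided, with Benjamini-Hochberg adjustment and a threshold of 0.05. One fit took all 11 libraries, grouped by fraction and location and adjusted for behaviour (6 residual degrees of freedom), and the other the 8 immunoprecipitates in 4 groups (4 degrees of freedom). Fold changes on this scale understate changes of low genes. Depth was estimated from genes with 1 transcript of at least 1500 bases, where 88.9 to 96.4% of low values lay within 0.15 reads of 1, 2 or 3 reads. All members, the 4 most abundant genes of each list described and the 5 genes most like Atpase6 and mt-Nd4 are named. Alternatives were pseudocounts of 0.1 and 5, minimums of 0 and 5, other scalings, the single-end table, a replicate block, robust moderation and leaving out each library. Fits were tested on simulated data. Sequences are from GENCODE M21 (GRCm38); no coordinates of that build were used.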

Additional observations from a re-analysis of the deposited data

Results flagged for a closer look

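A single library stood apart from the other 3 of its group in 6 of 14 groups of 4 examined. Where the other 3 are listed at 0, any value above 0 is flagged. The rows also share libraries, so the count was not set against a rate by chance. In soma IPs the library apart was the FC soma IP 1 for mt-Nd4 (13.7 scaled FPKM, next 1.09), AK163440 (39.1, others listed at 0) and BC071253 (3.16, next 0.0614). In dendrite IPs it was the FC dendrite IP 1 for AK140265 (6.60, others listed at 0) and GU332589 (16.1, next 0.366), and the FC dendrite IP 2 for DQ539915 (17.2, others listed at 0). The FC dendrite IP 1 is the library with an r of 0.659 with the HC dendrite supernatant in the paired-end run.

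In the rest of the 3′ UTR, which the comparisons above do not use, both FC libraries lay above both HC libraries in 5 of 6 cases (3 mitochondrial rows above 0 in each location), untested. The same was seen in 21.4% of all rows above 0 in dendrite IPs and 40.1% in soma IPs. In the single-end table the dendrite values of AK018753 (1.67 and 13.8 FPKM in FC, 4.93 and 0 in HC) and Cytb (5.91 and 6.93 in FC, 3.62 and 79.3 in HC) overlapped. In soma IPs the lower FC value of DQ539915 was 0.502 FPKM, against 0.0905 for the higher HC value. AK018753, a mitochondrial row that is not a member, had at least 6.33 FPKM in FC dendrite IPs, against at most 0.806 in HC dendrite IPs; in soma IPs the lower FC value was 0.981 and the higher HC value 0.875. Cytb, the cytochrome b of complex III, had at least 1.86 in FC dendrite IPs, against at most 1.01 in HC dendrite IPs, and at least 0.448 in FC soma IPs, against at most 0.0237 in HC soma IPs.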

How the results depend on the processing

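Of the member differences in the 3 tested comparisons, Atpase6 between behaviours in soma alone passed the threshold in the main direction, in the 2 settings given above, 1 of which leaves a single home cage library. Other settings gave 2.48 to 5.47 for it, and leaving out 1 library 2.21 to 4.24. DQ539915 turned to -3.82 (adjusted p = 0.0431 in limma) in the single-end table between dendrite IPs and supernatants. There it was above 0 in the 2 dendrite supernatants alone, which fixed that sign. The other sign changes were as follows. Between soma IPs and supernatant, AK141672 came to 0.011 (pseudocount of 0.1), 0.32 (no scaling), 0.12 (75th percentile scaling) and 0.28 (single-end), AK163440 to 0.12 (pseudocount of 5), mt-Nd4 to 0.086 and GU332589 to 0.045 (no scaling), and BC071253 to -1.55 (single-end). In dendrites AK141672 came to -0.59 (single-end). With 1 library left out, the ranges that crossed 0 were -0.24 to 0.13 for AK141672, -1.72 to 1.11 for AK163440 and -0.64 to 0.34 for GU332589 between soma IPs and supernatant, -1.53 to 0.16 for mt-Nd4 between dendrite IPs and supernatants, and -0.56 to 1.28 for GU332589 between behaviours in soma. The cause of these changes was not tested.

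Genes called between dendrite IPs and supernatants came to 1 with either pseudocount and a minimum of 5, to 376 with no minimum, to 10 in the single-end table, and to 0 to 2 with 1 library left out (0 without the HC dendrite supernatant). Between soma IPs and supernatant they came to 1 with a pseudocount of 0.1 or a minimum of 5, to 935 with no minimum and to 10 in the single-end table, and to 0 with any library left out. Between behaviours in soma 1 was called without scaling, and 0 to 167 with 1 library left out: 56 without the HC soma IP 1 and 167 without the HC soma IP 2. Deviations of same-numbered dendrite and soma IPs from their group means had an r of 0.0595 in FC and -0.00634 in HC. With 2 libraries a group and an r of 0.0876 to 0.352 between IPs, this cannot show whether replicate numbers pair libraries. A replicate block left 1 gene called between dendrite IPs and supernatants. It turned AK141672 there to -0.0063 and BC071253 in soma to -0.23. Scaling over the 643 genes with a mean FPKM of at least 1, chosen after seeing the data, kept every count. The median share was 7.09% (dendrite IPs), 6.13% (dendrite supernatants) and 1.45% (soma supernatant) as reported, and 2.70% (dendrite IPs), 7.87% (dendrite supernatants) and 1.35% (soma supernatant) in the single-end table; 0.256%, 0.974% and 0.132% without Atpase6; and, without the largest other row, 7.51% in dendrite supernatants and 1.71% in the soma supernatant.

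With 2 libraries a group, a few amplified fragments can set a value: at its nominal length, 1 fragment on the mt-Nd4 row is 0.0572 to 0.354 FPKM in the paired-end runs. No such value was computed for the rows of 201 bases.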

Other observations

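The deposited annotation places 11 symbols on the mitochondrial chromosome, and 3 of them are not members: AK018753, Cox2 and Cytb. No coding part is annotated for these rows, and their first part is 201 bases of a 3′ UTR. There, AK018753 and Cytb were listed at 0 in all libraries of both runs. Cox2, a catalytic subunit of complex IV, had 6.06 FPKM in the FC dendrite supernatant and 0.908 in the HC dendrite supernatant and was listed at 0 in the other paired-end libraries; in the single-end table it was above 0 only in the FC dendrite IP 2 (11.5 FPKM). In the rest of the 3′ UTR, AK018753 had 71.9 and 6.33 FPKM in FC dendrite IPs and 0.806 and 0.0760 in HC dendrite IPs, beside 32.0 (FC) and 74.7 (HC) in the dendrite supernatants. Cytb had 8.48 and 1.86 in FC dendrite IPs and 0.399 and 1.01 in HC dendrite IPs, beside 7.09 (FC) and 7.36 (HC) in the dendrite supernatants. These stretches overlap members on the other strand, GU332589 for AK018753 and BC071253 for Cytb, so the rows may share reads.

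The rest of the 3′ UTR of mt-Nd4 (mm9 chrM:10372-11542) was listed at 0 in all 11 libraries of both runs, while the first part of the row reached 92.3 FPKM in the paired-end run (FC dendrite IP 1) and 472 in the single-end run (FC dendrite supernatant). The rest of AK163440 was also listed at 0 throughout, and its first part reached 339 FPKM in the same paired-end and 1114 in the same single-end library. For Atpase6 the rest was listed at 0 in 9 of 11 paired-end libraries, with a highest value of 0.184 FPKM, and in 3 of 11 single-end libraries, with a highest value of 101 FPKM in the HC dendrite IP 2. DQ539915 went the other way: its first part was above 0 in 1 paired-end library, and the rest of its 3′ UTR in 10.

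Nuclear genes for moving and anchoring mitochondria had a positive FC minus HC difference in soma IPs for 8 of 9 tested, with a median difference of 1.54 on the log2 scale, against 0.17 over all genes, of which 56.3% were positive, and 0 were called by limma. In soma, 5 of 5 pyramidal markers were also positive, with a median of 1.08, and nuclear-encoded genes of complexes II and III had a median of 1.52. In dendrite IPs 2 of the 9 transport and anchoring genes were positive, with a median of -0.20, against 0.08 over all genes. In soma Kif1b and Kif5a, kinesin motors, differed by 2.91 and 0.75, Trak2, an adaptor between mitochondria and motors, by 1.54 and Snph, an anchor of axonal mitochondria, by 2.99.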
